A study of Mus musculus with 16 samples.

Results

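The genes of the DNA replication machinery were followed across 16 arrays of mouse thymic T-cell lymphomas and normal thymic T cells. The set held 42 genes, of which 40 had an array feature annotated with that gene alone, out of 22180 genes with such a feature. Where a gene had several, as Pole, Fen1 and Rpa1 did, the brightest feature was taken. The other 2 genes, Rfc4 and Ccne2, lay only on features that they share with Eif4a2 and Ints8. The samples were 3 lymphomas of Lck-Dlx5 mice aged 9 months (Dlx5 founder lines 63, 47 and 86, 1 each), 3 tumors of Lck-MyrAkt2 mice of founder line 72 and 3 of founder line 420 (both aged 5 months), 4 tumors of mice aged 2 months that carried both transgenes (called Double here, 2 each of Dlx5 founder lines 47 and 86), and thymic T cells from 3 wild-type (WT) littermates of Lck-Dlx5 mice aged 9 months. The Lck promoter, active in immature T cells, drives both transgenes. One encodes the homeobox factor Dlx5 and the other a myristoylated Akt2 kinase that is held at the membrane. For the Double tumors of Dlx5 line 47 the labels give 420 as the Akt2 line, and for those of Dlx5 line 86 they give none. Age was the same in Lck-Dlx5 and WT mice, in the 2 MyrAkt2 lines and within the Double group. In every other comparison age goes with genotype, so they cannot be told apart.

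A cell copies its genome once per division. In G1, the origin recognition complex, Cdc6 and Cdt1 load the ring-shaped MCM helicase onto DNA, a step called licensing. At the start of S phase, the Dbf4-Cdc7 kinase and cyclin E with its kinase recruit Cdc45 and the GINS complex, and the active helicase is followed by primase, the polymerases, the sliding clamp Pcna and its loader, single-strand binding proteins, flap and nick repair enzymes, and chromatin assembly factors. Many of these genes carry E2F sites in their promoters and are transcribed late in G1, and in the thymus they are strongly expressed in the dividing immature thymocytes.

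Promoter sequence from the RefSeq table on GRCm38.p6 is shown for 4 members with an E2F match before the start of the gene and for Ccne1, the member whose levels departed most from those of the others. The stretches are Mcm6 (chr1:128359706-128359875 on the minus strand), Mcm5 (chr8:75109339-75109467 on the plus strand), Gins3 (chr8:95633389-95633558 on the plus strand), Rfc3 (chr5:151651209-151651378 on the minus strand) and Ccne1 (chr7:38107491-38107660 on the minus strand). Each is written 5′ to 3′ along the gene and lies outside the span of the gene in the reference gene table, and capitals mark the E2F words.
Mcm6: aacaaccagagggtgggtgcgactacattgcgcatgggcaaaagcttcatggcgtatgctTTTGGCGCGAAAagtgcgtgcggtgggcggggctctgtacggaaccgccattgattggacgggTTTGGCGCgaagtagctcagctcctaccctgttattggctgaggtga
Mcm5: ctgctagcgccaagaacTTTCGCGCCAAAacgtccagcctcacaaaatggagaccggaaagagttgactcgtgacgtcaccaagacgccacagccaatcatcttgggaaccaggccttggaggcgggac
Gins3: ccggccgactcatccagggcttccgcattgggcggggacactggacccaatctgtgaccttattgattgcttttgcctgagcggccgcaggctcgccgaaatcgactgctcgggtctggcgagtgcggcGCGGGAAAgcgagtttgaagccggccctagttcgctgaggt
Rfc3: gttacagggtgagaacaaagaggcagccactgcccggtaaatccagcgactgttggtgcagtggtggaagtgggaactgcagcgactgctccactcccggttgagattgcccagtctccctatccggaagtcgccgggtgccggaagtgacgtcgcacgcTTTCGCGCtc
Ccne1: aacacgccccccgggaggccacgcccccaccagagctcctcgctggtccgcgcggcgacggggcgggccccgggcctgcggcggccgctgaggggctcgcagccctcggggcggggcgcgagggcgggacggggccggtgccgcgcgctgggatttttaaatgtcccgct
The words searched on both strands were TTTCCCGC, TTTCGCGC, TTTGCCGC and TTTGGCGC. A window of 250 bases before to 50 bases after the start was listed for 32 of the 40 measured members. In that window 13 of 32 members (40.6%) held at least 1 E2F word, against 4.56% of the 10115 genes tested on the arrays and 2.6% of all 27025 genes with an entry. The 13 were the helicase genes Mcm3, Mcm5, Mcm6 and Mcm7, the licensing genes Orc1, Cdc6 and Cdt1, the GINS gene Gins3, the polymerase genes Pola1, Pold1 and Pole2, the clamp loader gene Rfc3 and the ligase gene Lig1. In Mcm6 and Mcm5, a pair of words on opposite strands overlap. The CCAAT box was present in 62.5% of members and 41.1% of all genes, the E-box CACGTG in 18.8% and 8.09%, and TAATT, the core bound by Dlx and other homeobox factors, in 21.9% and 29.9%. Among the genes tested on the arrays these shares were 41.9%, 11.5% and 19.2%, so TAATT was near its share in expressed genes. Members with an E2F word had a median log2 difference from WT of 0.86 in Lck-Dlx5 lymphomas, and the 19 members without one had 0.81. The medians were 0.73 and 0.70 in line 72 and 0.71 and 0.70 in line 420, and in Double tumors the order turned, at 0.55 with a word and 0.59 without. A match is a string of letters and not a measured binding site. Only the exact words were searched, so a promoter without a match, as for Ccne1, is not shown to lack an E2F site.

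**Figure D1:**
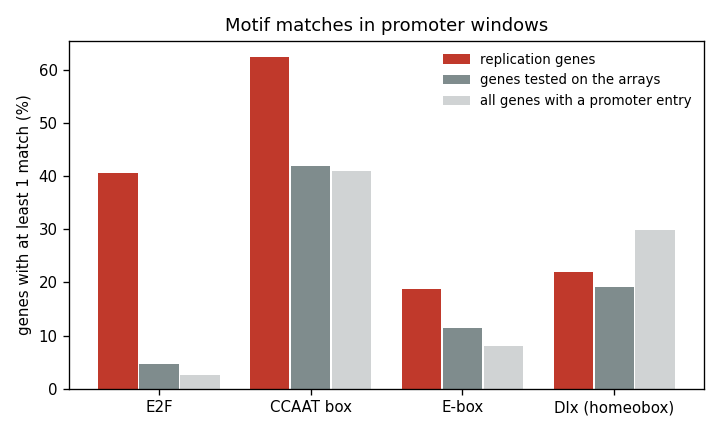
Share of genes (y axis, percent) with at least 1 match to each motif (x axis) in the promoter window, for the replication genes, the genes tested on the arrays and all genes with an entry. The bar of the replication genes stands at 40.6% for E2F against 4.56% and 2.6%.

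Values are log2 levels as deposited, and array medians ran from 6.32 to 6.46. A gene is called higher or lower below when the adjusted p of limma was under 0.05 among 12932 genes tested, and all 40 measured members were among these. The 4 comparisons with WT share the same 3 WT arrays. Dlx5 read 5.70 to 5.82 in WT, 11.45 to 12.30 in Lck-Dlx5, 11.93 to 12.97 in Double and 6.05 to 6.07 in line 72 tumors. It also read 9.87 to 10.69 in line 420 tumors, whose labels name no Dlx5 transgene. Akt2 read 9.46 to 10.11 over the tumors and 9.74 to 9.91 in WT, so its feature did not separate the Akt2 transgenic groups. The sum of the T cell markers was lower in tumors: the log2 of their summed level (10 of 12 with a feature) was 15.30 to 15.39 in WT, 14.41 to 14.78 in Lck-Dlx5, 13.93 to 14.09 in line 72, 13.73 to 14.47 in line 420 and 14.52 to 15.18 in Double tumors. This sum follows the brightest markers. In line 72 tumors 6 of the 10 were called lower, with Cd8a at -5.16 and Cd8b1 at -4.26, and Cd2, Cd3d, Cd5 and Cd28 were not called. The log2 of the summed level of thymic epithelium markers (8 of 9) was 10.73 to 11.04 in WT and 9.53 to 10.03 over the tumors. That of macrophage and dendritic cell markers (12 of 13) was 11.59 to 11.89 in WT. It was 12.48 to 13.38 in line 72, 12.35 to 12.97 in line 420, 11.67 to 12.34 in Lck-Dlx5 and 11.75 to 12.39 in Double tumors. The neutrophil markers (10 of 10) summed to 10.72 to 11.25 in WT, 10.12 to 11.88 in line 72 and 8.87 to 9.23 in the other tumors, where 8 to 9 of the 10 lay below the array median on every array. The B cell markers (7 of 8) summed to 9.97 to 10.38 in WT and 8.86 to 10.17 over the tumors. The fibroblast and endothelium markers (10 of 10) summed to 11.17 to 11.31 in WT and 10.61 to 12.26 over the tumors, and the erythroid markers (3 of 8) to 8.01 to 8.13 in WT and up to 9.57 in line 72. The part of these shifts in the results below was not tested. In bulk samples, a larger share of dividing cells and more RNA per cell cannot be told apart.

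The comparisons with WT asked how far the replication genes of each kind of tumor departed from those of normal thymic T cells. Most of them were higher in all 4 kinds of tumor, and none was called lower. In Lck-Dlx5 lymphomas 36 of 40 members were called higher, where 13.7% of all genes tested were. In line 72 tumors 32 were called, against 20.7% of all genes. In line 420 tumors 29 were called, against 15.1%, and in Double tumors 28, against 14.9%. The median log2 difference of the 40 members was 0.80 in Lck-Dlx5, 0.70 in line 72, 0.68 in line 420 and 0.56 in Double tumors, or 1.74-, 1.62-, 1.60- and 1.47-fold, where the median of all genes lay between 0.00 and 0.05. Every tumor lay above every WT array for 38 members in Lck-Dlx5 (25.1% of all genes), 39 in line 72 (32.0%), 39 in line 420 (27.6%) and 31 in Double (24.0%). For 31 members all 13 tumors lay above all 3 WT arrays, as they did for 12.1% of all genes. Of the 40 members, 24 were called in all 4 comparisons, 5 in 3, 4 in 2, 6 in 1 and Cdc7 in none. The Double count fell to 11 without WT replicate 2, to 12 without WT replicate 1 and to 18 without Double replicate 1 or 2. It was 15 when only the 7 arrays compared were used and 11 with the type of sample code as a term in the model. Among Double tumors that code type goes with the Dlx5 founder line. Leaving out 1 array moved the other counts by less than 1.5 times (28 to 33, 24 to 30 and 21 to 27).

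**Figure D2:**
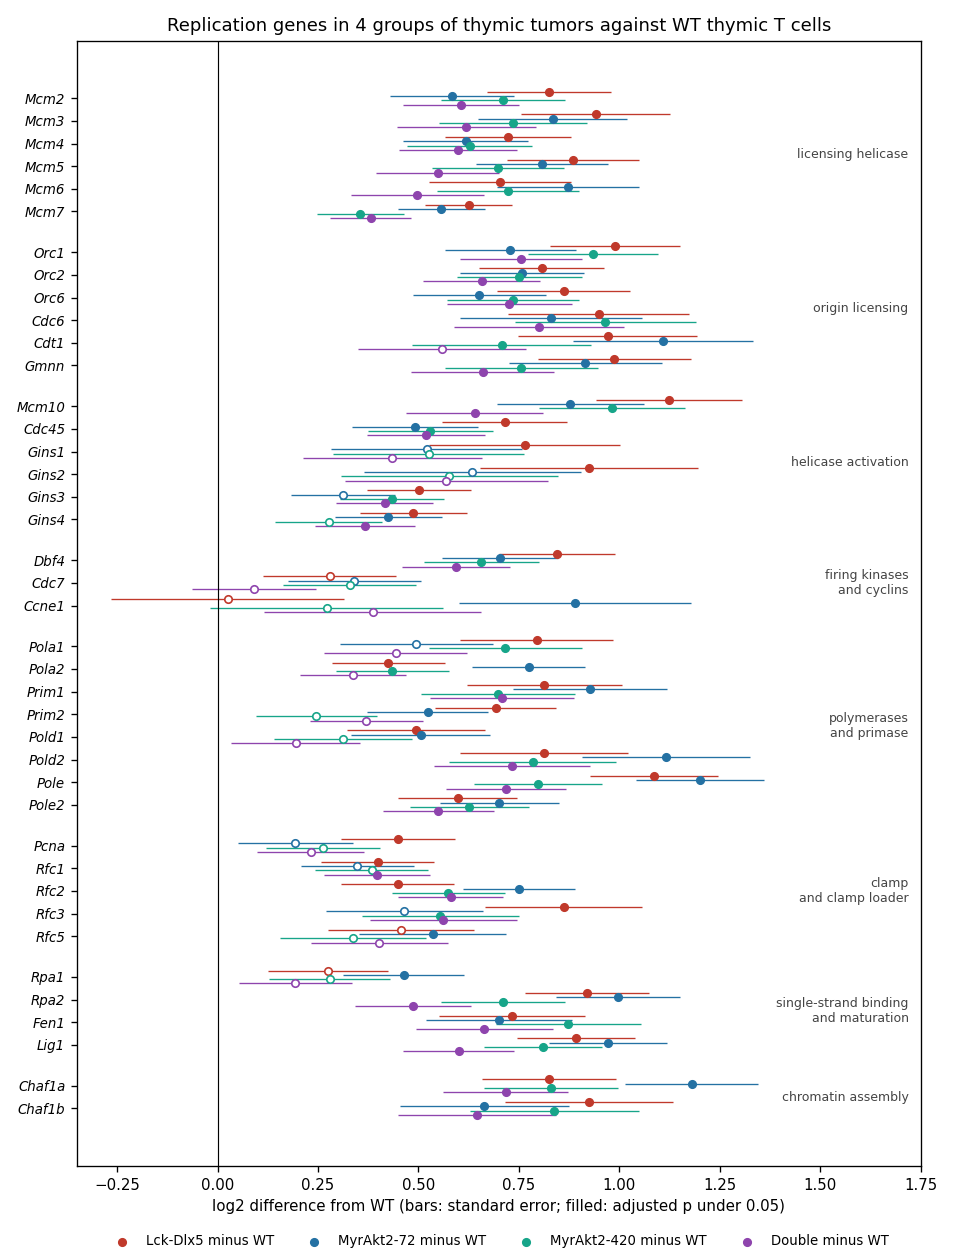
Log2 difference from WT (x axis) of each measured member (y axis, grouped by role) in the 4 tumor groups. Points are limma estimates, bars are standard errors and filled points are called. All points lie right of 0, and those nearest to it are Ccne1 in Lck-Dlx5 (0.02) and Cdc7 in Double tumors (0.09).

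Among the licensing factors, all 6 members were called higher in Lck-Dlx5, line 72 and line 420 tumors and 5 of 6 in Double tumors. Orc1, the largest subunit of the origin recognition complex, read 6.95, 7.02 and 6.97 in WT and 7.84, 8.05 and 8.02 in Lck-Dlx5 lymphomas. It read 7.49, 7.87 and 7.77 in line 72, 7.78, 8.03 and 7.94 in line 420 and 7.93, 8.08, 7.41 and 7.52 in Double tumors. Every tumor was above every WT array. The log2 difference was 0.99 ± 0.16 (SE, adjusted p = 0.000973) in Lck-Dlx5, 0.93 ± 0.16 (SE, adjusted p = 0.00102) in line 420 and 0.76 ± 0.15 (SE, adjusted p = 0.00346) in Double tumors. Cdc6, the loader ATPase of the MCM ring, read 8.54, 8.57 and 8.80 in WT and 9.42, 9.77 and 9.62 in line 420 tumors. In Double tumors it read 9.96, 9.81, 9.01 and 8.98, so the last 2 arrays lay between WT and the other tumors. The Cdc6 difference was 0.96 ± 0.23 (SE, adjusted p = 0.00582) in line 420 and 0.80 ± 0.21 (SE, adjusted p = 0.0149) in Double tumors, and the Double call was lost without WT replicate 1 (adjusted p = 0.0624) or 2 (adjusted p = 0.0585). It was also lost with the code type as a term (adjusted p = 0.0643), with only the arrays compared (adjusted p = 0.0647) and with the line 86 tumors only (adjusted p = 0.109). Orc6, a small subunit of the same complex, read 9.46 to 9.69 in WT and 9.96 to 10.61 in Double tumors, a difference of 0.73 ± 0.15 (SE, adjusted p = 0.00491).

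Cdt1 brings the MCM ring to the origin, and geminin (Gmnn) binds Cdt1 and blocks a second licensing. Both were called higher in Lck-Dlx5, line 72 and line 420 tumors. Cdt1 read 8.75, 8.74 and 8.81 in WT, 9.65, 10.02 and 9.54 in Lck-Dlx5 and 9.57, 10.28 and 9.77 in line 72 tumors. Gmnn read 7.35, 7.29 and 7.30 in WT and 8.27, 8.31 and 8.32 in Lck-Dlx5 lymphomas. No tumor of these groups overlapped with WT. The Cdt1 difference was 0.97 ± 0.22 (SE, adjusted p = 0.00621) in Lck-Dlx5 and 1.11 ± 0.22 (SE, adjusted p = 0.0017) in line 72 tumors, and that of Gmnn was 0.99 ± 0.19 (SE, adjusted p = 0.00233) in Lck-Dlx5. In Double tumors Cdt1 was 0.56 ± 0.21 above WT (SE, adjusted p = 0.067) and was not called, with all 4 arrays above WT.

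All 6 genes of the MCM helicase ring (Mcm2 to Mcm7) were called higher in all 4 kinds of tumor. Their median difference was 0.77 in Lck-Dlx5, 0.71 in line 72, 0.70 in line 420 and 0.57 in Double tumors. Mcm3 read 8.96, 8.83 and 8.93 in WT, 9.69, 9.78 and 10.07 in Lck-Dlx5, 9.64, 9.95 and 9.63 in line 72, 9.62, 9.70 and 9.61 in line 420, and 9.77, 9.94, 9.12 and 9.27 in Double tumors. Groups did not overlap with WT, and the 2 lowest tumors were both Double. The smallest change of the ring was that of Mcm7, at 0.36 ± 0.11 (SE) in line 420 and 0.38 ± 0.10 (SE) in Double tumors. Mcm3 in Double tumors (0.62 ± 0.17 SE, adjusted p = 0.0198) was not called without any 1 of Double replicates 1 and 2 or WT replicates 1, 2 and 3, with adjusted p from 0.0514 to 0.0775. It was 0.0944 with the code type as a term, 0.0649 with only the arrays compared and 0.186 with the line 86 tumors only.

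Of the 6 factors that turn the loaded ring into an active helicase, 6 were called in Lck-Dlx5 lymphomas, 3 in line 72, 3 in line 420 and 4 in Double tumors, and none of the 6 was called between tumor groups. Mcm10, which acts in helicase activation and primer synthesis, read between 7.78 and 8.07 in WT, 9.03, 9.20 and 8.99 in Lck-Dlx5 and 8.83, 8.88 and 9.10 in line 420 tumors. It was the member with the largest difference from WT in both, at 1.12 ± 0.18 (SE, adjusted p = 0.000904) and 0.98 ± 0.18 (SE, adjusted p = 0.00148). The GINS genes Gins1 and Gins2 had the largest standard errors of these factors. Gins2 read 8.45, 8.32 and 8.64 in WT and 9.31, 9.68, 8.49 and 8.70 in Double tumors, which overlapped with WT, and 9.51, 9.53 and 9.15 in Lck-Dlx5, which did not. Both were called in Lck-Dlx5 alone, at 0.76 ± 0.24 and 0.92 ± 0.27 (SE, adjusted p = 0.0275 and 0.0206). In the other groups they stood 0.43 to 0.63 above WT.

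The 3 measured kinase and cyclin genes of origin firing did not move together. Dbf4, the activating subunit of the Cdc7 kinase, was called higher in all 4 groups (0.59 to 0.84). Its catalytic partner Cdc7 was called in none, at 0.28 ± 0.17, 0.34 ± 0.17, 0.33 ± 0.17 and 0.09 ± 0.15 (SE) in Lck-Dlx5, line 72, line 420 and Double tumors. Ccne1, which encodes cyclin E1, had a pattern of its own. It read 8.33, 8.21 and 8.37 in WT, 7.82, 8.27 and 8.89 in Lck-Dlx5, 9.34, 9.19 and 9.05 in line 72, 8.85, 7.95 and 8.93 in line 420, and 8.15, 8.69, 9.04 and 8.88 in Double tumors. Only the line 72 tumors were all above WT, and the Lck-Dlx5 lymphomas spanned the WT range on both sides. The difference from WT was 0.89 ± 0.29 (SE, adjusted p = 0.0271) in line 72 and 0.02 ± 0.29 (SE, adjusted p = 0.957) in Lck-Dlx5, with 0.27 ± 0.29 and 0.39 ± 0.27 (SE) in line 420 and Double tumors. The line 72 call was lost without line 72 replicate 1 or 2 or any 1 WT array, with adjusted p from 0.0551 to 0.081. In Lck-Dlx5 the sign turned to -0.26 without replicate 3 and to -0.022 without WT replicate 2.

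**Figure D3:**
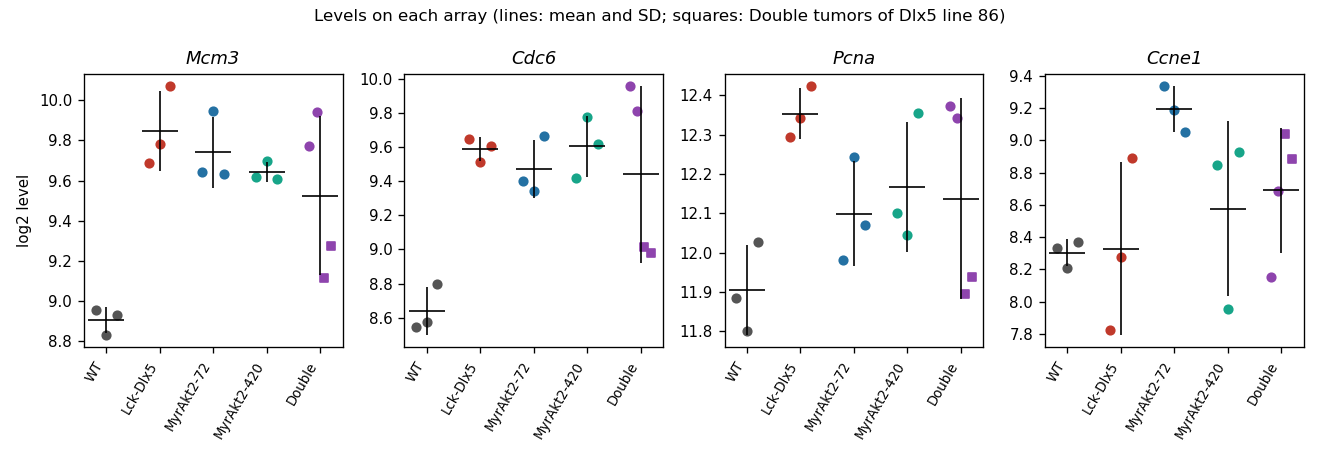
Log2 level (y axis, a separate scale for each gene) of Mcm3, Cdc6, Pcna and Ccne1 on each array by group (x axis), with mean and SD. For Mcm3 and Cdc6 all tumors lie above WT, and the 2 Double tumors of Dlx5 line 86 (squares) are the lowest tumors. For Ccne1 the same 2 arrays, at 9.04 and 8.88, lie above the other Double tumors.

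Among the polymerase genes, Pole, the catalytic subunit of the leading-strand polymerase, had the largest difference from WT in Lck-Dlx5, line 72 and line 420 tumors, and Pold2 in Double tumors. It read 8.99, 8.91 and 9.04 in WT, 9.90, 10.23 and 10.08 in Lck-Dlx5, 10.06, 10.23 and 10.26 in line 72, 9.78, 9.76 and 9.80 in line 420 and 10.06, 9.89, 9.54 and 9.30 in Double tumors. All tumors lay above WT. The difference was 1.09 ± 0.16 (SE, adjusted p = 0.000504) in Lck-Dlx5 and 1.20 ± 0.16 (SE, adjusted p = 8.89e-05) in line 72, the largest of any member there. Pold2, an accessory subunit of the lagging-strand polymerase, read 9.24, 9.13 and 9.46 in WT and 10.22, 10.57 and 10.39 in line 72 tumors, a difference of 1.12 ± 0.21 (SE, adjusted p = 0.00103). In Double tumors it was 0.73 ± 0.20 above WT (SE, adjusted p = 0.0154), a call lost without WT replicate 1 (adjusted p = 0.0577) or 2 (adjusted p = 0.0713), with the code type as a term (adjusted p = 0.0727), with only the arrays compared (adjusted p = 0.0696) or with the line 86 tumors only (adjusted p = 0.106). Its catalytic partner Pold1 stood 0.19 to 0.51 above WT and was called in Lck-Dlx5 and line 72 alone. All 8 genes of polymerases and primase were called in Lck-Dlx5, 7 in line 72, 6 in line 420 and 4 in Double tumors.

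The sliding clamp Pcna and its loader were 0.38 to 0.46 above WT at the median in the 4 groups. Pcna is an abundant transcript, at 11.89, 11.80 and 12.03 in WT, 12.29, 12.34 and 12.42 in Lck-Dlx5, 11.98, 12.24 and 12.07 in line 72, 12.10, 12.04 and 12.35 in line 420 and 12.37, 12.34, 11.90 and 11.94 in Double tumors. It was called in Lck-Dlx5 alone, at 0.45 ± 0.14 (SE, adjusted p = 0.0293). That call was lost without Lck-Dlx5 replicate 2 or 3 or WT replicate 1 or 2 (adjusted p from 0.0606 to 0.103). Line 72 and Double tumors overlapped with WT. Of the 5 clamp and loader genes measured, 4 were called in Lck-Dlx5, 2 in line 72, 2 in line 420 and 3 in Double tumors. Rfc2, a subunit of the clamp loader, was the 1 called in all 4 groups, at 0.45 to 0.75. Rfc1, the large subunit, was called in Lck-Dlx5 (0.40, adjusted p = 0.0456) and Double tumors (0.40, adjusted p = 0.0414). It stood almost as far above WT in line 72 (0.35) and line 420 tumors (0.38), where only some alternatives called it. Of the alternatives tried, 7 of 15 lost the Lck-Dlx5 call and 10 of 18 the Double call. Those that lost the Double call included quantile normalization, no filter and only the arrays compared. Its Lck-Dlx5 call was lost without any 1 of the 6 arrays compared (adjusted p from 0.0758 to 0.114), and its Double call without Double replicate 1 or 2 or any 1 WT array (adjusted p from 0.102 to 0.118). Rfc5 was called in line 72 alone (0.54, adjusted p = 0.0333), a call lost without line 72 replicate 2 or 3 or WT replicate 1 or 2 (adjusted p from 0.0617 to 0.114). It was also lost with no filter (adjusted p = 0.0501). In Lck-Dlx5 lymphomas Rfc5 stood 0.46 above WT and was called under some alternatives only.

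The single-strand binding gene Rpa2 read 8.36, 8.36 and 8.39 in WT, 9.22, 9.32 and 9.33 in Lck-Dlx5 and 9.30, 9.70 and 9.10 in line 72 tumors. Its difference was 1.00 ± 0.15 (SE, adjusted p = 0.000269) in line 72, while Rpa1, the large subunit of the same complex, stood 0.19 to 0.46 above WT in the 4 groups and was called in line 72 alone. That Rpa1 call (adjusted p = 0.0268) was lost without line 72 replicate 1 or 2 or WT replicate 1 or 2 (adjusted p from 0.0573 to 0.0885). Fen1, the nuclease that trims the flaps of lagging-strand fragments, read 7.75 to 7.79 in WT and 8.69, 8.53 and 8.72 in line 420 tumors, a difference of 0.87 ± 0.18 (SE, adjusted p = 0.00287). Lig1, which seals the fragments, was called in all 4 groups at 0.60 to 0.97.

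Both large subunits of chromatin assembly factor 1, which deposits histones behind the fork, were called in all 4 groups. Chaf1a read 7.95, 7.91 and 8.02 in WT, 9.18, 9.04 and 9.20 in line 72 and 9.06, 8.91, 8.28 and 8.45 in Double tumors. Its difference was 1.18 ± 0.17 (SE, adjusted p = 0.000136) in line 72 and 0.72 ± 0.16 (SE, adjusted p = 0.00546) in Double tumors. Chaf1b read 9.41, 9.27 and 9.53 in WT and 9.97, 10.14 and 10.62 in line 420, a difference of 0.84 ± 0.21 (SE, adjusted p = 0.00859). No tumor of any group fell within the WT range for either gene.

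The comparisons between tumor groups asked whether the replication genes differed with the transgene. Few members were called. Where few of all genes were called as well, a count of 0 members does not set the replication genes apart from other genes. The counts also depended on which Double tumors were kept, as given below for each Dlx5 founder line. In Lck-Dlx5 lymphomas against line 72 tumors, 1 of 40 members was called lower, where 12.8% of all genes were, and 0 were called higher, where 6.94% were. The 1 member was Ccne1, at -0.86 ± 0.29 (SE, adjusted p = 0.0496), with all 3 Lck-Dlx5 lymphomas below all 3 line 72 tumors. That call was lost without Lck-Dlx5 replicate 1 or 2 or any 1 line 72 tumor (adjusted p from 0.0846 to 0.193). Of the 40 members, 39 had an interval (95%) of the difference that lay within 1 log2 unit of 0, and the median half-width was 0.35. The margin of 1 unit is wider than the median differences from WT (0.56 to 0.80). Counts of intervals within it therefore do not show that the groups were alike. Against line 420, whose tumors also had high Dlx5, 0 of 40 members were called by limma (0.827% of all genes), 2 had an unadjusted p under 0.05, and all 40 intervals lay within 1 log2 unit of 0. Between lines 420 and 72, 0 of 40 were called (11.2% of all genes) and 2 had an unadjusted p under 0.05, with a median difference of -0.09.

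Double tumors stood slightly below the single transgenic groups, with median differences of -0.21 against Lck-Dlx5, -0.09 against line 420 and -0.15 against line 72. By limma, 0 of 40 members were called against Lck-Dlx5 (1.86% of all genes, 6 members with an unadjusted p under 0.05) and 0 against line 420 (0.178% of all genes, 0 members with an unadjusted p under 0.05). Against line 72, 3 members were called lower, where 8.51% of all genes were. They were Pola2, the accessory subunit of the primase polymerase (-0.44 ± 0.13 SE, adjusted p = 0.0341), Pole (-0.48 ± 0.15 SE, adjusted p = 0.0372) and Rpa2 (-0.51 ± 0.14 SE, adjusted p = 0.0264). All 3 calls were lost without Double replicate 3 or 4, or without line 72 replicate 2 (adjusted p from 0.0684 to 0.13). Pole and Pola2 were also lost without line 72 replicate 3 (adjusted p = 0.12 and 0.128), and Pole and Rpa2 without line 72 replicate 1 (adjusted p = 0.0523 and 0.0501). The count against line 72 was 10 without Double replicate 2, 5 without replicate 1, and 0 to 1 without Double replicate 3 or 4 or any 1 line 72 tumor. Against Lck-Dlx5 it was 2 without Double replicate 1. With the code type as a term, 15 members were called lower in Double tumors than in Lck-Dlx5 and 13 lower than in line 72. Within the Double group code type goes with the Dlx5 founder line, so these counts are not separate from the split by line described below. The shares of all genes under that setting are not given here. With the Dlx5 founder line as a block, 0 were called against Lck-Dlx5 and 11 had an unadjusted p under 0.05. These comparisons share arrays with each other and with those against WT.

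The 4 Double tumors were not alike, and they divided by the Dlx5 founder line in their labels. The median member stood 0.78 and 0.88 above the WT mean in the tumors of line 47 (replicates 1 and 2) but 0.23 and 0.30 in those of line 86 (replicates 3 and 4). In the 9 single transgenic tumors this value ran from 0.55 to 0.84. Both line 47 tumors were above both line 86 tumors for 39 of 40 members, as they were for 25.0% of all genes, while 26.2% of all genes had the opposite order. The exception was Ccne1. The median difference between the lines was 0.54 over members and 0.01 over all genes. For 28 members, the 2 line 86 tumors were the lowest of all 13 tumors. They still lay above every WT array for 32 members, against 39 for the line 47 tumors. The shares of all genes for these counts of lowest tumors and of tumors above WT were not computed, so the counts are description only.

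**Figure D4:**
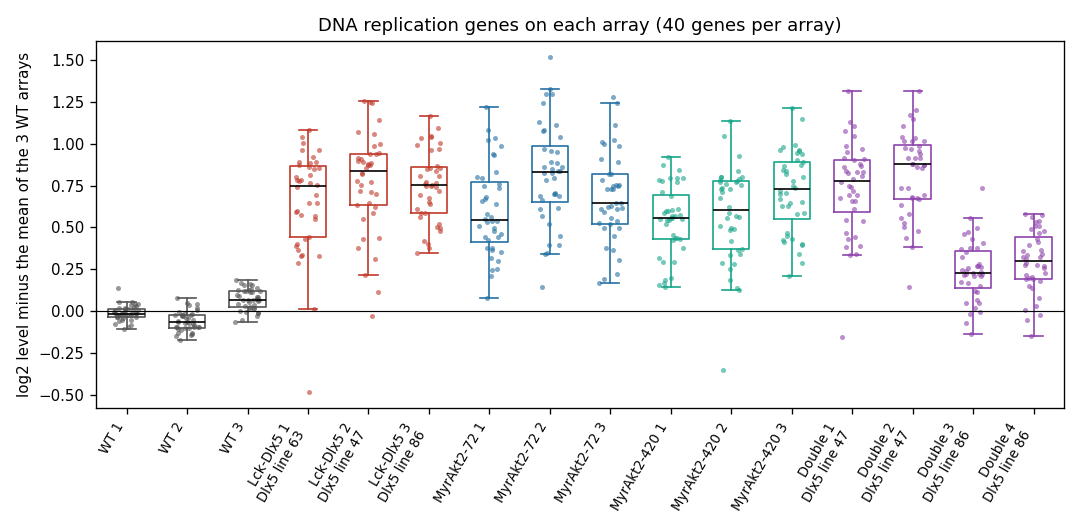
Log2 level of each of the 40 measured members minus its WT mean (y axis) on each of the 16 arrays (x axis). Boxes show quartiles and the median, whiskers reach the last point within 1.5 box lengths. Medians are 0.23 and 0.30 in Double replicates 3 and 4 and 0.55 to 0.88 in the other tumors.

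When each Double pair was kept in turn beside the other groups, 38 of 40 members were called above WT for line 47, where 16.8% of all genes were, and 5 for line 86, where 7.90% were. These fits use the same values as the split above and are no separate test of it. The line 86 pair was below Lck-Dlx5 lymphomas for 23 called members (4.41% of all genes), below line 420 for 9 (2.71%) and below line 72 for 18 (9.09%), and the line 47 pair differed from these groups in 0 called members. In a fit with the 2 pairs as separate groups, a comparison chosen after the values were seen, 15 of 40 members were called higher in line 47, where 1.56% of all genes were. Cdc6 had the smallest adjusted p, with a difference of 0.89 ± 0.15 (SE, adjusted p = 0.00739), followed by Mcm6 at 0.67 ± 0.13 (SE, adjusted p = 0.015) and Chaf1a at 0.62 ± 0.12 (SE, adjusted p = 0.0157). Ccne1 was at -0.54 ± 0.33 (SE, adjusted p = 0.377). The count was 0 without Double replicate 3, 1 without replicate 2 and 2 without replicate 4, where 1 pair has a single tumor whose spread is assumed to be that of the other groups. The count was 0 with the type of sample code as a term. Outside the Double group only replicate 3 of line 420 has a letter code, so in this fit the term rests on that 1 tumor against the others of its group. The drop to 0 therefore cannot tell the code from the Dlx5 line. The line 47 tumors have letter sample codes and the line 86 tumors have numbers, and the 2 pairs also differ in what the labels say of the Akt2 line, so these cannot be told apart from the Dlx5 line. Among Lck-Dlx5 lymphomas, the line 47 tumor was above the line 86 tumor for 23 of 40 members, with a median difference of 0.04. That sets 1 tumor against 1 other, and the share of all genes in that order was not computed, so it is description only. Beside the replication genes, 17 of 19 mitotic genes were higher in both line 47 Double tumors, 8 of 10 T cell markers were lower (none higher), and the summed T cell markers stood at 14.52 to 14.84 in line 47 and 15.13 to 15.18 in line 86. The fibroblast and endothelium sum was 10.61 to 10.69 in line 47 and 11.41 to 11.52 in line 86, with 3 of 9 tested markers lower and 1 higher in both line 47 tumors. Thymic epithelium markers were lower for 5 of 8 and higher for 2 (median -0.45), and B cell markers were lower for 3 of 5 (median -0.85). By the same rule, 25.0% of all genes were higher and 26.2% lower in both line 47 tumors. Beside these shares the fibroblast and endothelium counts do not stand out. The part of these marker differences in the split was not tested.

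**Figure D5:**
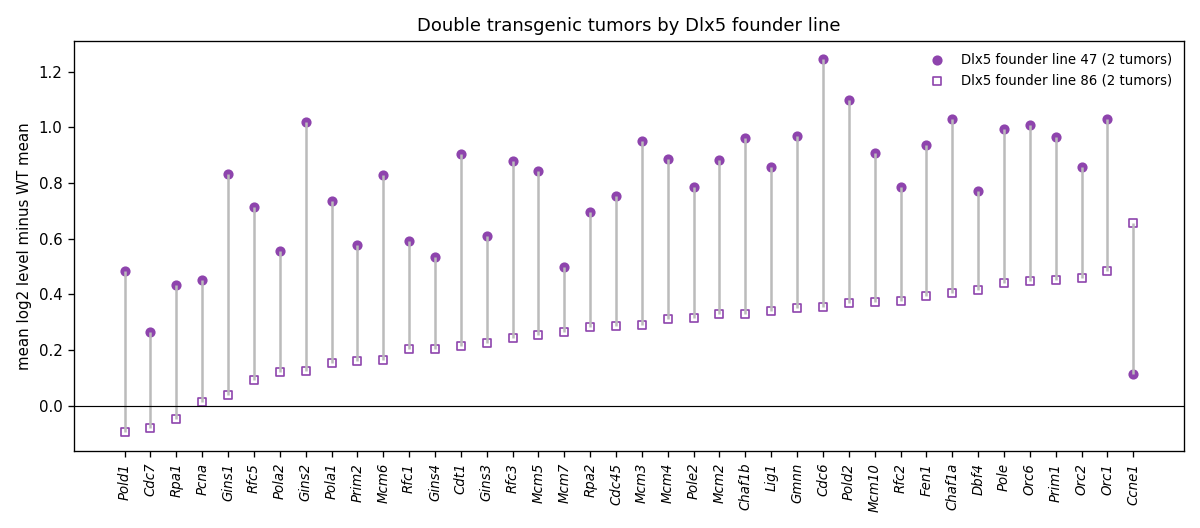
Mean log2 level minus the WT mean (y axis) of each member (x axis, ordered by the line 86 value) in the Double tumors of Dlx5 founder line 47 (circles, 2 tumors) and line 86 (squares, 2 tumors). Circles lie above squares for 39 of 40 members, and Ccne1 is at the right end with the opposite order.

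Genes around the replication machinery were counted from lists in the same way, beside the 13.7%, 20.7%, 15.1% and 14.9% of all genes called higher in Lck-Dlx5, line 72, line 420 and Double tumors. Of 36 further replication factors tested, 26 were called higher and 1 lower in Lck-Dlx5, 21 and 0 in line 72, 17 and 0 in line 420 and 15 and 0 in Double tumors, with medians of 0.60, 0.55, 0.44 and 0.39. The fork gene Wdhd1 was among those called in all 4 groups (1.08 ± 0.14, 1.01 ± 0.14, 0.83 ± 0.14 and 0.72 ± 0.13 SE), as was the helicase gene Mcm8 (1.03, 0.91, 1.12 and 1.12). Of 17 genes of nucleotide supply, 11 to 13 were called higher and 1 to 2 lower in each group. Cad, which starts pyrimidine synthesis, rose by 1.38, 1.90, 1.45 and 1.07 in Lck-Dlx5, line 72, line 420 and Double tumors, and the deoxycytidine kinase gene Dck of the salvage pathway fell, at -1.08, -1.91, -1.61 and -1.05. The share of all genes called lower was 15.9% in Lck-Dlx5, 15.6% in line 72, 15.4% in line 420 and 8.93% in Double tumors. Of 13 E2F factors and pocket proteins, 2 or 3 were called higher and 1 to 3 lower in each group, near the shares of all genes. The activator E2f3 was called higher in all 4 groups (0.91, 0.81, 0.77 and 0.82) and E2f2 was called lower in all 4 (-0.90, -0.65, -1.08 and -0.60).

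Of 16 genes that control licensing and timing, 6, 6, 5 and 3 were called higher in Lck-Dlx5, line 72, line 420 and Double tumors and 1, 1, 1 and 0 lower. The Double count was near the 14.9% of all genes called. Cks1b and the phosphatase gene Cdc25a were called higher in all 4 groups at 0.68 to 0.82, and Cdkn1b, an inhibitor of the cyclin E kinase, was called lower in Lck-Dlx5 (-0.54), line 72 (-2.03) and line 420 tumors (-0.65). Of 10 checkpoint genes, 3 or 4 were higher and 1, Rad9a, lower in each group. Among 19 mitotic genes, 15 were called higher and 0 lower in Lck-Dlx5, 4 and 1 in line 72, 7 and 0 in line 420 and 6 and 0 in Double tumors. The line 72 count was near the 20.7% of all genes called higher there. Lck-Dlx5 lymphomas had 10 of the 19 mitotic genes called above line 72 (6.94% of all genes), with a median of 0.43, including Nusap1 (0.76 ± 0.13 SE, adjusted p = 0.00122), Cenpf (0.69 ± 0.17 SE) and Birc5 (0.67 ± 0.20 SE). Nusap1 and Cenpf were not called above WT in Lck-Dlx5 lymphomas (0.30 and 0.42), and Nusap1 was called below WT in line 72 tumors (-0.46). The median of the replication genes in that comparison was 0.06.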

How the data were processed

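RNA from 16 samples was hybridized to Affymetrix whole-transcript mouse arrays of the second generation, with 1 array per sample. The deposited values are log2 expression levels per feature, which the authors made with Affymetrix Expression Console (version, summarization and normalization not given in the sources used here). They were used as deposited, and precision is limited by having 3 or 4 arrays a group. Of 41345 features, 23521 were named with 1 gene, 1820 with several and 16004 with none. The brightest feature per gene was kept. Testing covered the 12932 genes whose value passed the array median in 3 or more samples. All samples entered 1 linear model of group means (limma 3.58.1, R 4.3.3, eBayes), and p-values were adjusted by Benjamini-Hochberg within each of 10 comparisons, so every adjusted p is limma's. No label says that samples of a group came from separate litters, so p-values measure the spread between these samples. The members and lists were chosen with earlier results of these data known. All members could be named. For each comparison up to 5 called members of largest change were given with error and adjusted p, and members that went against their complex were given with values. For other lists up to 4 called genes of largest change could be named, and Cdkn1b, E2f2, E2f3 and other genes shared by groups were picked within the lists after their values were seen. Alternatives were quantile normalization, equal array medians, no filter or a stricter one, averaging the features of each gene, robust eBayes with a trend, weighted arrays, fits to the compared arrays alone, the type of sample code as a term, each array left out, the Dlx5 founder line as a block, and Double tumors of 1 founder line. Promoter sequences are from RefSeq (GRCm38.p6). Plots came from matplotlib 3.10.9 (Python 3.11.15).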

Additional observations from a re-analysis of the deposited data

Results flagged for a closer look

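A test of the difference between tumor groups passed for 4 members. Ccne1 was -0.86 in Lck-Dlx5 against line 72 tumors (adjusted p = 0.0496 by limma). In Double against line 72 tumors, Pola2 was -0.44 (adjusted p = 0.0341), Pole -0.48 (adjusted p = 0.0372) and Rpa2 -0.51 (adjusted p = 0.0264). Of all genes, 12.8% were called lower in the first comparison and 8.51% in the second, so these counts do not stand out. The calls were lost under 12 of 15 alternatives for Ccne1. For Pola2, Pole and Rpa2 they were lost under 8, 9 and 6 of 18.

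The features shared with a neighbouring gene entered no comparison, and their signal cannot be assigned to either gene. The feature of Rfc4 and Eif4a2 averaged 9.23 in WT and 10.09 in Lck-Dlx5, 9.75 in line 72, 9.85 in line 420 and 9.78 in Double tumors, with all 13 tumors above all 3 WT arrays. The feature of Ccne2 and Ints8 averaged 9.37 in WT and 9.95 in line 420 tumors, with all 3 tumors above WT. It read 10.23, 9.50 and 10.28 in Lck-Dlx5 and 9.25, 9.57 and 9.60 in line 72 tumors, where 1 array of each fell below the highest WT array (9.52), and 10 of all 13 tumors exceeded it. In the 4 Double tumors it read 10.38, 10.42, 9.46 and 9.58, so the line 47 tumors were the higher ones, the opposite order to Ccne1.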

How the results depend on the processing

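Counts of called members against WT kept within 1.5 times of the main value for Lck-Dlx5, line 72 and line 420 tumors under every alternative tried, and 127 of 168 recomputed counts over all comparisons did so. The Double count against WT (28) was 11 with the type of sample code as a term, 15 with only the arrays compared, 5 with line 86 tumors only and 11 to 33 with 1 array left out. The call of Ccne1 between Lck-Dlx5 and line 72 tumors, at an adjusted p just under the threshold, was lost (a count of 0) under quantile normalization, equal array medians, no filter, eBayes with trend and robust, array weights and only the arrays compared, and the count was 0 to 1 with 1 array left out. Its adjusted p was 0.0524 with the code type as a term. Within the Double group code type goes with the Dlx5 line, so a Double count with that term is not separate from the split by line. Outside that group only replicate 3 of line 420 has a letter code. With the code type as a term the counts were 2 for line 420 against line 72, 15 for Double against Lck-Dlx5 and 13 for Double against line 72. Array weights gave 3 and 10 for the latter 2 comparisons. The shares of all genes under these 2 settings are not given here, so the counts are description only. Double against line 72 (3) was 1 with no filter, 0 with only the arrays compared and 0 to 10 with 1 array left out, and Double against Lck-Dlx5 (0) was 0 to 2. With line 86 tumors only, Double counts were 23 against Lck-Dlx5, 9 against line 420 and 18 against line 72, and with line 47 tumors only the last was 0. The count between the Double pairs (15) was 0 with the code type as a term and 0 to 12 with 1 Double tumor left out, a comparison and alternatives chosen after seeing the data. The cause of these shifts was not tested.

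Of 822 recomputed values of single members, 6 changed sign, none of them called. Ccne1 in Lck-Dlx5 against WT was -0.26 without Lck-Dlx5 replicate 3 and -0.022 without WT replicate 2, and ran from -0.26 to 0.28 with 1 array left out. Cdc7 in Double against WT was -0.038 with the code type as a term, -0.0059 without Double replicate 1 (up to 0.17 without replicate 4) and -0.082 with line 86 tumors only, and Rpa1 was -0.047 with line 86 tumors only. No paired analysis was possible because only the WT labels carry replicate numbers. Tumors of Lck-Dlx5 and Double mice share Dlx5 founder lines, and with that line as a block, an alternative chosen after seeing the data, the count between them was again 0.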
